A study of Homo sapiens with 6 samples.

Results

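The TRIM (tripartite motif) family comprised the 66 protein-coding genes named TRIM plus a number among the 60655 genes of the count table. Of these, 36 had enough reads to be tested and 30 did not. The family was proposed for description because *TRIM14* passed the enrichment thresholds in these libraries, so *TRIM14* is selected on the very comparison given below, and its values are a description without a test. The other members were chosen by their symbols alone.

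RNA immunoprecipitation sequencing (RIP-seq) reads the RNA that an antibody brings down with its protein from cell lysate. IGF2BP3, called IMP3 in the sample labels, is an RNA-binding protein with KH and RRM domains that acts on the stability and translation of its bound mRNAs. WaGa, an established Merkel cell carcinoma (MCC) line that carries Merkel cell polyomavirus, was used with the wild-type genotype and without treatment, so all libraries come from 1 cell line. There were 3 IGF2BP3 IP libraries and, with a nonspecific antibody as the negative control, 3 IgG IP libraries, and the comparison asked which RNAs came down with IGF2BP3. No input RNA library was used here, so every difference is relative to the RNA recovered with IgG.

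TRIM proteins typically begin with a RING domain, which transfers ubiquitin, followed by B-box zinc fingers and a coiled coil through which they assemble. The C-terminal part differs between members and selects the partner: a PRY/SPRY domain in the largest class, a PHD finger and bromodomain in the chromatin members, NHL repeats in others. Many members act in antiviral innate immunity, others in transcriptional repression, muscle, the centrosome or DNA repair. Some lack the RING domain, among them *TRIM14*, *TRIM16*, *TRIM29*, *TRIM44* and *TRIM66*, so ubiquitin ligase is not an accurate name for every gene that carries a TRIM symbol. *TRIM14* encodes an adaptor at mitochondria in signaling through MAVS, and it is also known to protect the DNA sensor cGAS by recruiting the deubiquitinase USP14.

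Library totals ran from 9758759 to 14886414 counts. Both replicate 1 libraries stood apart from replicates 2 and 3 of their group, with a chi-square of the counts, per degree of freedom, of 18.2 to 21.9 against 2.2 and 3.25 for replicates 2 and 3, so results were also computed without both. Of 10 MCC markers, 9 had counts in every library, with a summed level of 2150 to 3260 TPM (the authors' length-scaled transcript abundance) in the IgG IP and 2530 to 3350 TPM in the IGF2BP3 IP. *NEUROD1* had at most 2 counts. Of 10 markers of other cells, 5 were at 0 throughout and the list summed to 0.82 to 0.94 TPM in the IgG IP and 0.65 to 1.75 TPM in the IGF2BP3 IP. The *IGF2BP3* mRNA itself did not pass the test (log2 fold change −0.04, edgeR quasi-likelihood test, adjusted p = 0.89), which measures RNA and does not check the IP of the protein.

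IGF2BP proteins are known for contacts with short CA-rich and GGC-containing elements spread along an mRNA. The stretch of 30 bases with the most CACA and GGCA matches, holding at least 1 of each, is shown for *TRIM14* and for *TRIM66*, *TRIM28* and *TRIM32*, the 3 other members in which all IGF2BP3 IP libraries lay above all IgG IP libraries. The stretches lie within 1 exon and are the first where several tie. The letters were searched on the transcript strand of the GENCODE version 44 canonical transcript (GRCh38), overlapping matches were all counted, and capitals mark every matched base.
*TRIM14*, 3′ UTR in exon 6 of 6, chr9:98087088-98087117, minus strand: CACAggaacctgaCACAtagtaGGCACACA
*TRIM66*, coding sequence in exon 6 of 25, chr11:8672002-8672031, minus strand: tgGGCACAGGCAtggctgtggacatgGGCA
*TRIM28*, 5′ UTR in exon 1 of 17, chr19:58544228-58544257, plus strand: ggcggattcaattgcGGCAgtgacgtCACA
*TRIM32*, 3′ UTR in exon 2 of 2, chr9:116699750-116699779, plus strand: ttcccttagttcttggttgttagtGGCACA

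These windows hold 5, 4, 2 and 2 matches. A window with at least 5 matches was found in 2.55% of 11867 tested protein-coding genes, and in 2.68% of the 1531 of them whose transcript has 4000 to 5000 bases, the size range of *TRIM14*. The bound of 5 was taken from *TRIM14* itself, so that it met the bound was fixed in advance. No other of the 36 tested members had such a window, while the untested *TRIM38* and *TRIM67* had windows with 6 matches. In 4 tested members, *TRIM23* and *TRIM29* among them, no window held both words. Over the whole *TRIM14* transcript the words were not dense, with 4.02 CACA per kb, the 42.3rd percentile of tested protein-coding genes, and 3.79 GGCA per kb, the 36.9th percentile. A match is a description of the letters and does not locate a binding site.

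By counts, 30 of the 66 members were silent or near silent in these libraries. At 0 counts in all 6 libraries were 17 members: *TRIM5*, *TRIM6*, *TRIM22*, *TRIM34* and *TRIM38*, which are known for antiviral roles and interferon induction, and *TRIM15*, *TRIM17*, *TRIM40*, *TRIM42*, *TRIM48*, *TRIM50*, *TRIM51*, *TRIM58*, *TRIM60*, *TRIM61*, *TRIM64* and *TRIM77*. A count of 0 allows a level of up to 0.202 to 0.307 CPM of the library total (3 counts), depending on the library, for counting error only. All other CPM values are counts scaled to the library size after TMM normalization. Another 13 members had counts but at most 7 in a library and were not tested, among them *TRIM21*, the cytosolic antibody receptor, and *TRIM63*, a ligase of striated muscle. The others were *TRIM7*, *TRIM10*, *TRIM31*, *TRIM43*, *TRIM49*, *TRIM54*, *TRIM67*, *TRIM71*, *TRIM72*, *TRIM73* and *TRIM74*. *TRIM73* and *TRIM74* are near-identical copies, and reads shared between such copies may be split or lost in counting, so their low counts are uncertain. In TPM, *TRIM73* had 0.923 ± 0.805 in the IgG IP (SD), above the mean of 0.797 of *TRIM47*, which was tested.

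Levels between genes can be compared only per transcript length, in TPM. In the IgG IP, 15 members had a mean of at least 10 TPM, 17 had 1 to 10 TPM and 34 had less than 1 TPM. The highest was *TRIM28*, the KAP1 corepressor that silences retroelements, at 48.7, 84.4 and 91.4 TPM in replicates 1 to 3 (74.8 ± 22.9, SD, n = 3). *TRIM13*, an ER-anchored ligase, followed at 45.9, 54.5 and 55.6 TPM, and *TRIM23*, which carries an ARF GTPase domain, at 37.6, 45.9 and 45.0 TPM. The ranges of *TRIM28* and *TRIM13* overlapped, those of *TRIM13* and *TRIM23* met at 45.9 TPM, and *TRIM28* was above *TRIM23* in each IgG IP library.

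Below them came a group with close levels. *TRIM44* had 29.6 ± 8.79 TPM, *TRIM37*, mutated in mulibrey nanism and known for a role at centrioles, 28.7 ± 4.94 TPM, and *TRIM27*, found fused to *RET* in tumors, 26.0 ± 6.76 TPM. The chromatin-reader members *TRIM33* (25.6 ± 5.79 TPM) and *TRIM24* (24.8 ± 7.71 TPM) were of the same order, and none of these neighbours was separated from the next by more than its SD. *TRIM14* was in the middle of the expressed members, 17th in the IgG IP at 7.22, 10.1 and 9.53 TPM, and had 14.9, 20.9 and 20.2 TPM in the IGF2BP3 IP. The replicate 1 library was the lowest of its group for *TRIM14* in both IPs on the TPM scale, and the summed TPM of all members was 501 ± 111 in the IgG IP and 610 ± 96.2 in the IGF2BP3 IP (SD, n = 3).

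**Figure D1:**
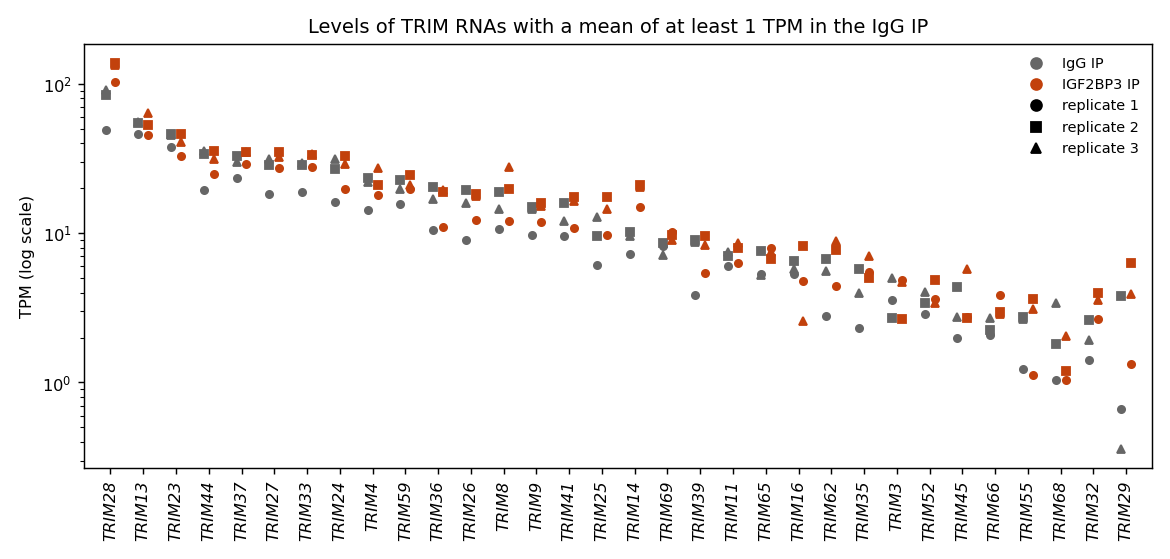
TPM (log axis) of the members with a mean of at least 1 TPM in the IgG IP, ordered by that mean, with 1 point per library, grey for IgG IP and orange for IGF2BP3 IP, and the marker shape giving the replicate. *TRIM28* is highest, and all 3 *TRIM14* points of the IGF2BP3 IP lie above its 3 points of the IgG IP.

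*TRIM14* RNA was 1.86-fold higher in the IGF2BP3 IP than in the IgG IP. The gene (ENSG00000106785.15) lies on the minus strand of chromosome 9 at 98069275 to 98119222 (GRCh38), and its canonical transcript has 6 exons and 4480 bases. It had 34.8, 36.4 and 34.9 CPM in IgG IP replicates 1 to 3 and 65.3, 69.9 and 62.3 CPM in IGF2BP3 IP replicates 1 to 3. The groups did not overlap, and the gap between them was several times the spread within either (35.4 ± 0.884 against 65.9 ± 3.83 CPM, SD, n = 3).

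On the log2 scale the *TRIM14* difference was 0.90 (SE 0.09, 95% confidence interval 0.69 to 1.10), past the enrichment minimum of a 1.5-fold change. These values rest on 321 to 543 counts per library in the IgG IP and 767 to 926 in the IGF2BP3 IP. Within libraries of the same number the log2 CPM difference was 0.91, 0.94 and 0.84. Of all reads on members, *TRIM14* took 2.36%, 2.3% and 2.21% in the IgG IP libraries, and in those of the IGF2BP3 IP 4.18%, 4.23% and 3.9%, while all members together took 0.139% to 0.167% of each library.

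The adjusted p-value of *TRIM14* was 0.005 in the main fit (edgeR), 8.1e-11 with DESeq2 and 4e-09 with the replicate block (edgeR). As the gene was selected on this comparison, these values describe it and test nothing. The call in the main edgeR fit depended on single libraries. Without IgG IP replicate 3 or without IGF2BP3 IP replicate 2 the adjusted p-value was 0.052 in each case (edgeR), just past the threshold of 0.05. In these fits 7 of 14880 and 0 of 14837 genes were enriched, against 169 of 14507 in the main fit. The *TRIM14* log2 fold change over all omissions of a single library ran from 0.85 to 0.92. Without both replicate 1 libraries the log2 fold change was 0.89. The gene span of *NANS* overlaps that of *TRIM14* on the opposite strand over 13803 bases. *NANS* had a log2 fold change of −0.07 (95% confidence interval −0.28 to 0.15). Overlap of exons was not examined, and whether the counting used the strand is not stated in the sources used here.

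The call of enrichment required a 1.5-fold change or more together with a p-value, adjusted by Benjamini-Hochberg over all 14507 tested genes, below 0.05. *TRIM14* was the only member called, 1 of 36 tested members (2.78%), where 1.16% of all tested genes were enriched. No member was lower, and 0% of all tested genes were lower. With the unadjusted p-value alone below 0.05 (edgeR), 5 members were higher (13.9%, against 9.72% of all tested genes) and 1 (2.78%, against 3.1%) had a lower level. DESeq2 likewise called 1 of the 33 members it gave an adjusted p-value, with 2.22% of genes called. Since the family was proposed because of *TRIM14*, these shares say nothing of the family as a whole.

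With the replicate number as a block, 3.56% of all tested genes and 2 members were called, *TRIM14* and *TRIM29*. *TRIM29*, a RING-less member of squamous epithelia also named ATDC, had 1.63, 2.61 and 0.726 CPM in the IgG IP and 1.76, 3.85 and 3.9 CPM in the IGF2BP3 IP. These groups overlapped. Its log2 fold change was 0.91 with a 95% confidence interval of −0.13 to 1.95 (edgeR, adjusted p = 0.46), and with the block 0.96 (edgeR, adjusted p = 0.0497). With the GC correction added to the block it was 0.79 and no longer called (edgeR, adjusted p = 0.143). It rested on 9 to 51 counts per library.

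*TRIM28* lay just outside the thresholds, as the member next to *TRIM14* by p-value. It had 70.8, 89.0 and 89.1 CPM in the IgG IP and 116, 124 and 124 CPM in the IGF2BP3 IP. All IGF2BP3 IP libraries were above all IgG IP libraries, and the lowest value was that of IgG IP replicate 1. The log2 fold change was 0.54 (SE 0.10, 95% confidence interval 0.31 to 0.78; edgeR, adjusted p = 0.041), which passed the p-value threshold and fell short of the required log2 fold change of 0.585. Without both replicate 1 libraries it was 0.48. Without any 1 of the replicate 2 or 3 libraries it was 0.51 to 0.60, past the fold minimum in some cases, with an adjusted p of 0.132 to 0.248 (edgeR). The adjusted p was 0.00197 with DESeq2 and 1.14e-06 with the replicate block (edgeR), at log2 fold changes of 0.53 and 0.55. With a correction for the GC content of transcripts, which is 64.2% for *TRIM28*, the log2 fold change was 0.31 (edgeR, adjusted p = 0.25, and 0.000717 with the replicate block as well). It lies on the plus strand of chromosome 19 at 58544064 to 58550722.

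In 4 of the 36 tested members (11.1%), *TRIM14*, *TRIM28*, *TRIM32* and *TRIM66*, all IGF2BP3 IP libraries lay above all IgG IP libraries, an order found in 12% of all tested genes. In 1 member (2.78%), *TRIM23*, they all lay below, against 8.69% of all tested genes. In the remaining 31 members the groups overlapped. *TRIM14* aside, none of the members with separated groups was called.

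*TRIM32*, an NHL-repeat ligase mutated in a limb-girdle muscular dystrophy, had 6.4, 7.64 and 5.89 CPM in the IgG IP and 9.15, 10.5 and 9.51 CPM in the IGF2BP3 IP. The log2 fold change was 0.54 (95% confidence interval 0.18 to 0.91; edgeR, adjusted p = 0.19, and 0.013 with the replicate block). The whole gene lies inside the span of *ASTN2* on the opposite strand, which had a log2 fold change of 0.44 (95% confidence interval −0.00 to 0.88). Gene spans and not exons were compared, so whether the counts of the 2 genes share reads was not tested. *TRIM66*, a RING-less relative of the chromatin members, had 8.56, 10.6 and 10.4 CPM in the IgG IP and 12.9, 13.3 and 11.5 CPM in the IGF2BP3 IP. Its log2 fold change of 0.34 did not pass the test (95% confidence interval 0.01 to 0.67; edgeR, adjusted p = 0.37).

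*TRIM23* had 112, 107 and 103 CPM in the IgG IP and 86.9, 95 and 87.5 CPM in the IGF2BP3 IP. It was the member with the most negative log2 fold change, −0.26 (95% confidence interval −0.44 to −0.08; edgeR, adjusted p = 0.20, and 0.0063 with the replicate block), and its interval stayed within 1.5-fold. Its transcript had the lowest GC content of the tested members, 36%, and the GC-corrected log2 fold change was −0.14. The gene span of *TRIM23* overlaps those of *TRAPPC13* (log2 fold change −0.12) and *SHLD3* (log2 fold change −0.32) on the opposite strand.

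**Figure D2:**
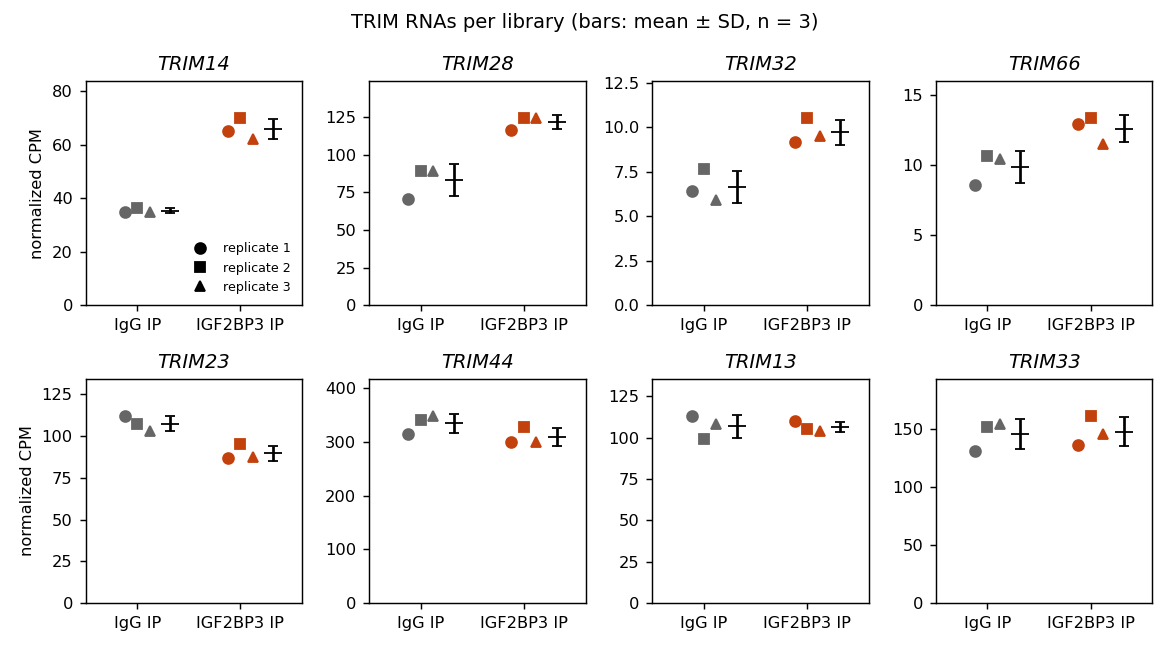
Normalized CPM (linear axes from 0) of 8 members in each library, with marker shapes for replicates 1 to 3 and the mean ± SD of each group in black. The groups are separated upward for *TRIM14*, *TRIM28*, *TRIM32* and *TRIM66* and downward for *TRIM23*, and they overlap for *TRIM44*, *TRIM13* and *TRIM33*.

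The largest class, with a PRY/SPRY domain as its last part, had 33 members in the table, of which 14 were at 0 in every library and 13 were tested. Each gene was put in 1 class, and the RING-less *TRIM14* and *TRIM16*, which also end in a PRY/SPRY domain, were placed with the RING-less members and not here. None of these 13 was called, so that holds for the class without *TRIM14*, and their median log2 fold change was 0.08, beside −0.01 for all tested genes. *TRIM62*, a ligase with a role in epithelial polarity, had 11.2, 17.4 and 13.9 CPM in the IgG IP and 16.1, 20.5 and 23.7 CPM in the IGF2BP3 IP. The groups overlapped and the log2 fold change was 0.50 (95% confidence interval 0.05 to 0.94; edgeR, adjusted p = 0.33). Within libraries of the same number it was higher in all 3 pairs, by 0.53, 0.24 and 0.77 on the log2 scale, and with the replicate block the SE was 0.12 and the adjusted p 0.00378 (edgeR), still short of the fold minimum. *TRIM65*, which ubiquitinates the RNA sensor MDA5, had 18.0, 18.2 and 15.3 CPM in the IgG IP and 23.9, 17.3 and 19.3 CPM in the IGF2BP3 IP.

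In *TRIM65* replicates 1 and 3 of the IGF2BP3 IP were above all IgG IP libraries and replicate 2 was not (log2 fold change 0.23). *TRIM35* had 11.6, 14.2 and 13.6 CPM in the IgG IP and 13.9, 15.1 and 16.1 CPM in the IGF2BP3 IP. *TRIM27* had 74.7, 72.6 and 80.6 CPM against 85.0, 79.4 and 77.2 CPM, and its 95% confidence interval, −0.11 to 0.28 on the log2 scale, lay within 1.5-fold. *TRIM25*, the ligase known to act on the RNA sensor RIG-I, was likewise within 1.5-fold, with a log2 fold change of 0.12 (95% confidence interval −0.23 to 0.47).

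Lower values in the IGF2BP3 IP in this class were small. *TRIM39* had 9.43, 12.3 and 11.7 CPM in the IgG IP and 9.49, 8.84 and 11.6 CPM in the IGF2BP3 IP (log2 fold change −0.17). *TRIM68*, which had at most 66 counts in a library, had 3.14, 4.42 and 4.03 CPM in the IgG IP and 3.36, 2.95 and 4.23 CPM in the IGF2BP3 IP (log2 fold change −0.16). The groups of both overlapped.

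The chromatin class, with a PHD finger and bromodomain, differed among its 3 members. Their RING-less relative *TRIM66* (log2 fold change 0.34) was placed with the RING-less members and not here. *TRIM28* is given above, while *TRIM24* and *TRIM33*, which both form complexes with each other and with *TRIM28* protein, had log2 fold changes of −0.02 (95% confidence interval −0.27 to 0.23) and 0.02 (95% confidence interval −0.20 to 0.24). Both intervals lay within 1.5-fold and below that of *TRIM28*. The difference between members was not tested.

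Among the NHL or filamin members, 4 were tested and none was called, with a median log2 fold change of 0.11. The MATH member *TRIM37* had 109, 106 and 100 CPM in the IgG IP and 125, 104 and 97.3 CPM in the IGF2BP3 IP, without separation of the groups. The transmembrane member *TRIM13* had 113, 99.4 and 108 CPM in the IgG IP and 110, 105 and 104 CPM in the IGF2BP3 IP, and its interval, −0.19 to 0.18 on the log2 scale, lay within 1.5-fold. *TRIM59*, the other transmembrane member, had 36.7, 32.9 and 30.0 CPM against 32.8, 30.1 and 28.4 CPM. The groups of both transmembrane members overlapped.

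Of the COS-box members with a PRY/SPRY domain, 3 neuronal or cytoskeletal genes were tested, none was called, and their log2 fold changes ran from −0.01 to 0.33. In the COS class without it, *TRIM55*, a muscle protein, had 3.47, 5.49 and 5.48 CPM in the IgG IP and 2.18, 4.99 and 6.18 CPM in the IGF2BP3 IP, with the lowest value of each group in replicate 1. The 3 tested members without a further domain had a median log2 fold change of 0.08 and none was called.

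The 5 RING-less members were all tested. Of these, 1 was called without the block, against 1.16% of all tested genes, and 2 with it, against 3.56%. Their median log2 fold change was 0.34. Both figures include *TRIM14*, for which the family was chosen, and nothing is read from them about RING-less members. *TRIM44*, a stabilizing partner of other TRIM proteins, had the highest CPM of the family, with IgG IP libraries at 315, 340 and 348 CPM against 300, 328 and 299 CPM in the IGF2BP3 IP, and its interval was −0.29 to 0.07 on the log2 scale. *TRIM16* had 6.29, 4.29 and 5.16 CPM in the IgG IP and 5.79, 4.68 and 3.58 CPM in the IGF2BP3 IP. The class thus held both the called member and 2 with log2 fold changes below 0.

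Over the 36 tested members, log2 fold changes were above 0 in 21 and below 0 in 15. The median was 0.07, beside −0.01 for all tested genes, and 26 members lay within 0.2 of 0. The 95% confidence interval lay within 1.5-fold in either direction for 22 members. For the other 14 the interval reached past 1.5-fold, in some because the value itself was high, as for *TRIM14* and *TRIM28*. At most 100 counts in every library stood behind 9 of the tested members.

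**Figure D3:**
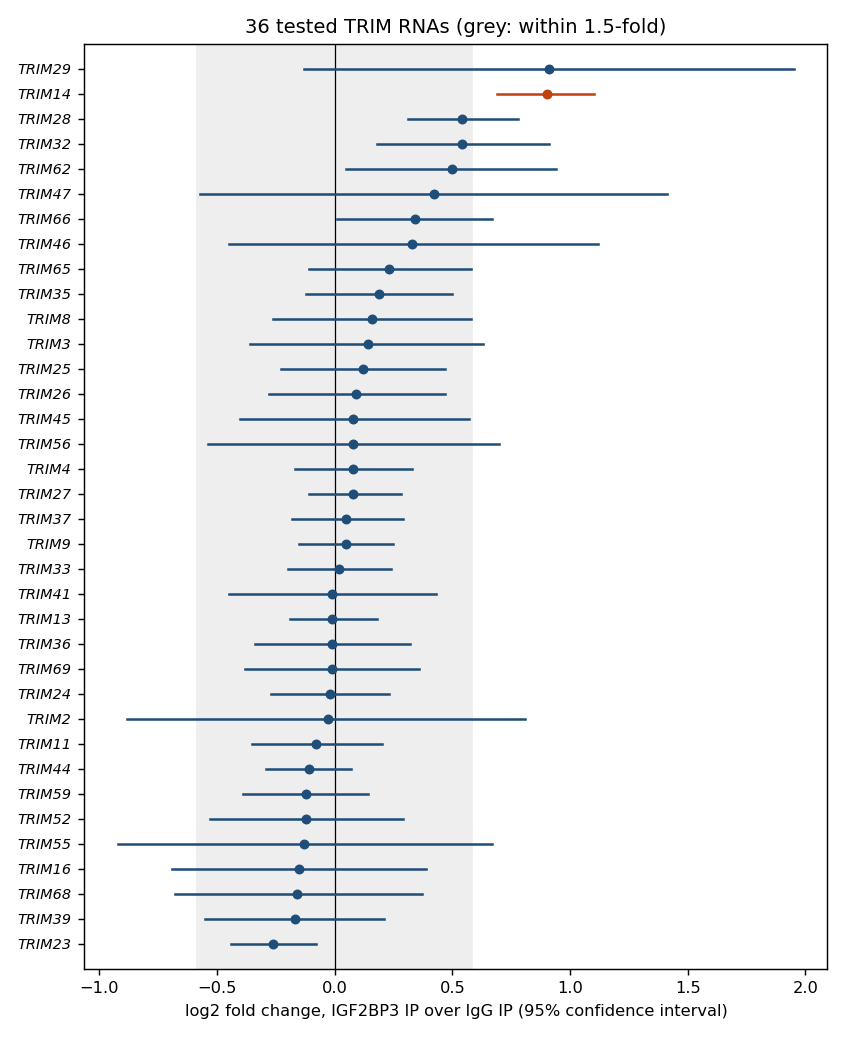
Log2 fold change of IGF2BP3 IP over IgG IP for the 36 tested members, ordered by size, with 95% confidence intervals as lines. Orange marks the called member and the grey band spans 1.5-fold in either direction. Only the interval of *TRIM14* lies wholly past the band, 0.69 to 1.10, and *TRIM29* has a like value with an interval that includes 0.

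The members' log2 fold changes went with the GC content of their transcripts, as did those of other genes. GC content ran from 36% to 66.4% over the tested members (median 51.4%), with a median of 47.8% over all tested protein-coding genes and 56.4% over the enriched ones. Pearson's r between GC content and log2 fold change was 0.50 across the 36 members and 0.43 across 11867 tested protein-coding genes, as a description, since these points come from the same 6 libraries. *TRIM14* has a GC content of 53.2%, the 65.4th percentile. With the GC correction *TRIM14*, for which the family was chosen, had a log2 fold change of 0.79 and was called. The median of the tested members was then 0.01. Whether GC content accounts for any of these differences was not tested.

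**Figure D4:**
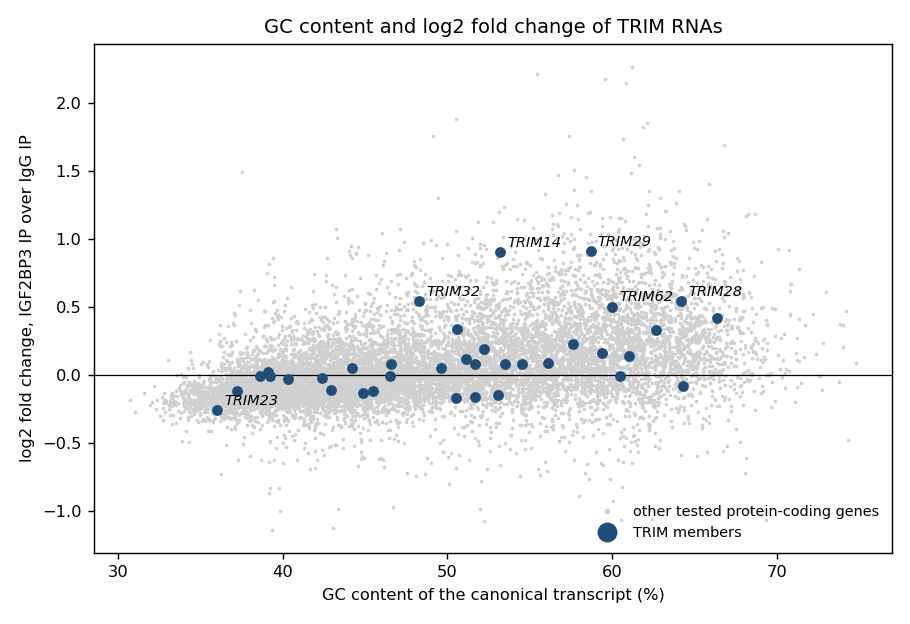
GC content of the canonical transcript (%) against the log2 fold change of IGF2BP3 IP over IgG IP, with tested members in blue over all other tested protein-coding genes in grey. Members rich in GC tend to lie higher (r = 0.50 across 36 members), and *TRIM14* at 53.2% GC lies above the other members of like GC content.

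Genes that work with TRIM proteins were described from lists. In the RIG-I, MAVS and STING list, 20 of 27 genes in the table were tested, none was called in either direction, and the median log2 fold change was 0.09. The smallest p-values were those of *RELA*, an NF-kappaB subunit (log2 fold change 0.41, edgeR, adjusted p = 0.24), *IFIH1*, which encodes MDA5 and had 4 to 21 counts (1.07, edgeR, adjusted p = 0.31), and *ZC3HAV1*, the zinc-finger antiviral protein (0.29, edgeR, adjusted p = 0.37). With the replicate block their adjusted p-values were 0.024, 0.087 and 0.0018 (edgeR), and still no gene of the list was called. The 7 untested genes, named after their counts were seen, were near 0. *DDX58*, which encodes RIG-I, had at most 9 counts in a library, *CGAS* at most 7 and *STING1* at most 1, and *DHX58*, *IRF7*, *IKBKE* and *NFKB1* had at most 4. *MAVS*, also named after its values were seen, had 96.7 ± 19.5 CPM in the IgG IP and 116 ± 17.6 CPM in the IGF2BP3 IP. Its log2 fold change was 0.26 (edgeR, adjusted p = 0.56, and 0.0049 with the replicate block), short of the fold minimum. *USP14* had 187 and 188 CPM.

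In the list of *TRIM28* partners, 19 of 23 genes were tested, 1 was enriched, where 1.16% of all tested genes were, and none was lower, and the median log2 fold change was 0.02. The enriched gene was *CBX5*, which encodes the heterochromatin protein HP1 alpha, with 1300 ± 53.5 CPM in the IgG IP and 2000 ± 156 CPM in the IGF2BP3 IP (log2 fold change 0.62, SE 0.09; edgeR, adjusted p = 0.016). That call was lost without IgG IP replicate 2 (log2 fold change 0.62, edgeR, adjusted p = 0.091), IGF2BP3 IP replicate 2 (0.56, edgeR, adjusted p = 0.12) or IgG IP replicate 3 (0.66, edgeR, adjusted p = 0.09). In these fits 19 of 14859, 0 of 14837 and 7 of 14880 genes were enriched. The *CBX5* call was also lost with limma-trend on both TPM scales (0.66 each, limma, adjusted p = 0.7 and 0.78). Those 2 fits called 0 of all 14507 tested genes. The *CBX5* paralog *CBX3* had a log2 fold change of −0.24 (edgeR, adjusted p = 0.25, and 0.0033 with the replicate block). *MTA1*, of the NuRD complex, had 0.24 (edgeR, adjusted p = 0.36, and 0.073 with the block). *MAGEA3*, *MAGEA6* and *MAGEC2*, cancer-testis partners of TRIM28, were at 0 counts in all libraries.

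Of the ubiquitin-activating and conjugating enzymes, 14 of 15 were tested and none was called, with a median log2 fold change of −0.11. *UBA1*, the main ubiquitin-activating enzyme, had 56.1 ± 5.46 CPM in the IgG IP and 78.3 ± 12 CPM in the IGF2BP3 IP (edgeR, adjusted p = 0.14, and 2.3e-05 with the replicate block), a log2 fold change of 0.48 and so short of the fold minimum. *UBE2K* and *UBE2W* had log2 fold changes of −0.17 and −0.25 (edgeR, adjusted p = 0.37 and 0.39, and 0.029 and 0.0044 with the replicate block). Of TRIM proteins and relatives with other names, 9 of 17 were tested and none was called, with a median of 0.15. *PML*, the organizer of nuclear bodies, had a log2 fold change of 0.46 (edgeR, adjusted p = 0.33, and 0.033 with the replicate block). That of *FSD1L* was −0.35 (edgeR, adjusted p = 0.18, and 0.0028 with the block). *MID1*, a microtubule-bound ligase with 10 to 28 counts per library, had −0.98 (edgeR, adjusted p = 0.28), and with the replicate block it was called lower (edgeR, adjusted p = 0.046), as were 0.103% of all tested genes, 15 of 14507.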

How the data were processed

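RIP-seq libraries from WaGa cells were grouped and numbered by their titles. The authors aligned 150 bp paired-end reads to GRCh38 with STAR 2.7.9a, used RSEM with GENCODE version 37, and deposited whole-number counts per gene without normalization; the counting program and its strand setting are not given in the sources used here. The authors also deposited TPM values, length-scaled estimates of abundance, used here for levels, and FPKM values, not used here.

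In edgeR 4.0.16, run in R 4.3.3, the counts passed filterByExpr and TMM normalization, and a quasi-likelihood model with the IP as its single term was fitted. All tested genes were adjusted together. The methods name DESeq2, run here as version 1.42.0 (independent filtering at 0.1). CPM use TMM library sizes. Other alternatives were RLE factors, no filter, at least 10 counts in every library, a loess correction of each library for GC content (span 0.5), limma-trend of limma 3.58.1 with a pseudocount of 1 or 0.1 added to TPM before log2, a replicate block, and leaving out each library. Omission of both replicate 1 libraries was added after seeing the data. The main fit, the block, RLE factors, the GC correction and DESeq2 were run on simulated data, and limma-trend there on CPM, not TPM. The other alternatives were not simulated, and the simulated libraries held no replicate pairing or GC trend. Nothing says that libraries were separate cultures, so p-values measure the spread between libraries, which may be technical. Interval precision rests on the spread between the 3 libraries of each group and on the depth of 9758759 to 14886414 counts per library. The limits for a count of 0 (3 counts) cover counting error only.

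Libraries of the same number deviated together from their group means (r = 0.57, 0.28 and 0.23 across genes for replicates 1 to 3), which met the criterion for pairs, although replicates 2 and 3 correlated as much across numbers (0.28 and 0.27). The main fit has no block, after the study's methods, so its errors and p-values leave the pairing out, and the block is an alternative. Loci, GC content and sequences came from GENCODE version 44, in which all 66 members were found. Members and lists were chosen with earlier results of these data known. Per-library values are given for *TRIM14*, the 10 other tested members with the smallest p-values, the 5 largest and 5 smallest log2 fold changes and the 6 highest TPM. From other lists, called genes and up to 3 more by p-value are named, besides those said to be chosen after their values were seen.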

Additional observations from a re-analysis of the deposited data

How the results depend on the processing

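Over 16 alternatives, *TRIM14* kept a positive log2 fold change. With 1 library left out at a time, the number of enriched members was 0 to 1, the *TRIM14* log2 fold change 0.85 to 0.92 and the median of the tested members 0.00 to 0.08. Without both replicate 1 libraries the median was 0.03, and *TRIM14* was still called. With limma-trend on log2(TPM + 1) and log2(TPM + 0.1), 0 members were enriched, and so were 0 of all 14507 tested genes in each fit. *TRIM14* then had a log2 fold change of 0.98 and 1.05 (limma, adjusted p = 0.57 and 0.65). The members' median was 0.16 and 0.19, where the median of all genes was itself 0.11 and 0.13. The GC correction gave a median of 0.01, alone and with the replicate block. With the replicate block 2 members were enriched, the second being *TRIM29*, which was not called once the GC correction was added to the block (0.79; edgeR, adjusted p = 0.143). The block changed no other call of a member. The number of lower members was 0 in every alternative. The causes were not tested. Over all genes the number enriched was 169, against 281 with DESeq2, 517 with the replicate block, 359 without a filter, 80 with the GC correction, 266 with both the GC correction and the block, 466 without both replicate 1 libraries, and 0 to 244 with 1 library left out. The number lower was 0, against 15 with the block, 36 with the GC correction and the block, 8 without both replicate 1 libraries and 1 without a filter. For the other members, 515 of 557 values under the alternatives moved by less than 1 SD of the replicates and 42 by more. The log2 fold change of 23 members took the other sign under some alternative, the largest of these being 0.42. Depth limits the members with few counts, and groups of 3 libraries the precision of all.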
